A study of Mus musculus with 2 samples.

Results

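The Cd74 class is a small group of cells, high in transcripts of antigen presentation genes, among sorted mouse bone marrow progenitors. Its members were every cell that the authors' cell annotation assigned to a class named Cd74: 7 of 7889 cells in the library labelled Runx1 KO and 56 of 6906 cells in the Control library, which makes 63 of 14795 cells in all. No source used here states how the authors drew the 18 classes. The 4 genes that mark the class are Cd74, H2-Aa, H2-Ab1 and H2-Eb1. Each was detected in at least 55 of the 56 Control cells, and Kit, the gene of the receptor used in the sort, in 37.

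Marrow came from hind limbs of C57BL/6 mice, and cells were sorted as Lineage-, c-Kit+ and Sca1-, the gate of committed myeloid and erythroid progenitors. One label field instead speaks of embryos; the tissue and extraction labels were followed. The Runx1 KO library is described only as a Runx1 knockout, and no source used here states the number of mice, the deleting Cre or the deleted exons. The Control library pooled 1 Runx1f/f mouse with 1 Runx1f/- mouse, so some of its cells carry 1 germline mutant Runx1 allele. The library that the annotation calls WT was taken to be Control. Both libraries were made with the 10x Genomics 3′ kit, version 3, and no mouse of origin is recorded for any cell. With 1 library per genotype, nothing was tested between genotypes.

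Control cells of the class held 2453 to 34279 unique molecular identifiers (UMIs, 1 for each captured transcript), with a median of 13502.5, against a library median of 21593.5. Their mitochondrial share had a median of 3.82%, and 1 cell passed 10%, at 19.7%. Scrublet called 1 of the 56 cells a doublet, the deepest one. There were 13 barcodes present in both libraries, and each library's class held 1 such cell.

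MHC class II molecules display peptides from the endosomal pathway to CD4+ T cells, and dendritic cells, B cells and activated macrophages make them. The alpha and beta chains pair in the endoplasmic reticulum around the invariant chain, which Cd74 encodes, and H2-DM later helps exchange its remnant for antigenic peptide. The coactivator CIITA switches the genes on through factors bound to short X and Y boxes in their promoters. In marrow, conventional dendritic cells arise from Flt3-bearing progenitors that depend on Irf8 and related factors, and they leave before they finish maturing.

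The class was drawn from the same cells and genes that are described here, so its difference from other cells is a description and carries no test. Levels are UMIs per 1000000 (CPM) after summing a class's cells, and log2 ratios were taken after adding 10 CPM to both sides. Ratios in linear scale have no such addition and carry exact 95% Poisson intervals. These intervals reflect counting error and leave out differences among cells and among mice.

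Cd74, at chr18:60803848-60812652 of GRCm38 (mm10), had 5 to 346 UMIs per class cell with a median of 111, and no cell lacked it. Its summed level was 9075 CPM in the class and 5.0 CPM in the other 6850 Control cells, a ratio of 1816 (1688 to 1955). H2-Aa, the alpha chain of the I-A molecule (chr17:34282744-34287823, minus strand), had 1 to 193 UMIs with a median of 54.5, and 4286 CPM against 2.18 CPM. H2-Eb1, the beta chain of I-E (chr17:34305867-34316674, plus strand), was found in 55 of the 56 cells, at 2042 CPM against 1.55 CPM. H2-Ab1, the beta chain of I-A (chr17:34257689-34269419, plus strand), was also found in 55 cells, at 3602 CPM against 18.7 CPM. H2-Ab1 lay between 10.1 and 26.1 CPM in each of the Car1, Ly86, CD34, Gstm1/CD63, Prss34 and Gstm1/Ly86 classes, where Cd74 lay between 0.511 and 2.18 CPM. In the small Fcrla and Vpreb1 classes Cd74 was the higher, at 4586 and 856 CPM, with H2-Ab1 at 1078 and 379 CPM.

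Taken cell by cell, the 4 genes together made up 3569 to 53254 CPM of the class cells, with a median of 17498 CPM. The lowest and the highest cell of the class thus lay far apart. Of the other Control cells, 68.2% had no UMI of the 4 genes, and 11 of 6850 reached the lowest class cell. Those 11 were 5 of 21 cells of the Vpreb1 class, 3 of 6 of the Fcrla class and 1 each of the Hba-a2, C1qb and Siglech classes. Both of the first 2 classes are named by B lineage genes. No cell of the Car1, Ly86, CD34 or Gstm1/CD63 classes came up to the lowest class cell, and their highest values were 2292, 1950, 439 and 356 CPM.

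**Figure D1:**
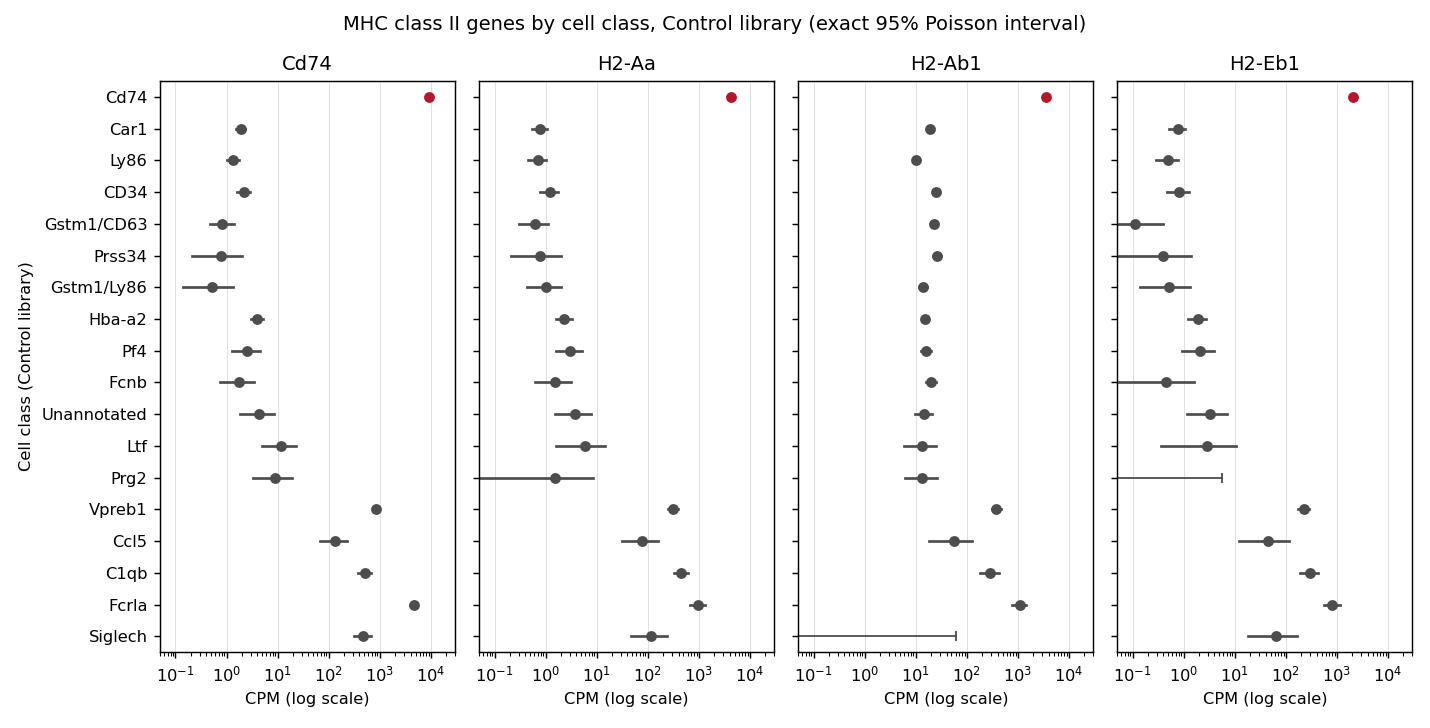
Level of the 4 MHC class II genes in each cell class of the Control library, in CPM on a log scale, with exact 95% Poisson intervals for counting error (a bar with an end tick and no point marks a class with 0 UMIs, drawn up to its upper limit). The Cd74 class stands at 2042 to 9075 CPM for the 4 genes, followed by the Fcrla class at 802 to 4586 CPM from 6 cells.

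The machinery that loads these molecules was high in the same cells. Of 11 loading genes listed, 10 were in the files and 8 were measured, meaning that they reached 30 CPM on the higher side and 50 UMIs over both. Of these 8, 7 were at least 2-fold higher in the class, where 13.7% of all 5211 measured genes were, and none was 2-fold lower. Genes below 30 CPM in the other cells, among them Ciita, H2-DMb1, H2-DMb2 and Ctss, were measured only through their level in the class. For these a higher level was built into the minimum, so the count is a description and no support. Over the 10 genes in the files, measured or not, the median log2 ratio was 2.39. Ciita, the coactivator itself (chr16:10480059-10528418), had 0 to 17 UMIs per cell with a median of 3.5 and was found in 49 cells. Its level was 293 CPM in the class and 0.31 CPM in the other Control cells. The peptide exchange factor H2-DM was represented by H2-DMb1 at 727 against 24.4 CPM and H2-DMa at 623 against 84.2 CPM. H2-DMb2, a close copy of H2-DMb1 that could share its reads, stood at 68.5 against 0.824 CPM. H2-Oa and H2-Ob, the chains of the DM inhibitor H2-O, were nearer to the other cells, with log2 ratios of 2.02 and 1.44. Ctss, the protease that trims the invariant chain, was at 254 against 13.5 CPM. Of the RFX subunits, which bind the X box, Rfxap was measured and did not pass the 2-fold limit, at 53.5 and 41.1 CPM. Rfx5, at 12.5 and 10.7 CPM, and Rfxank, at 11.2 and 6.64 CPM, were below the minimum of 30 CPM and not measured.

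The promoters of H2-Aa and H2-Eb1 are shown because CIITA acts through boxes of this kind. They are the 250 bases before the RefSeq start (GRCm38.p6), read 5′ to 3′ on the gene's strand, with the Y box letters TGATTGG and the X box letters CTAGNAAC in capitals. H2-Aa lies on the minus strand (chr17:34287824-34288073) and H2-Eb1 on the plus strand (chr17:34305617-34305866).
H2-Aa: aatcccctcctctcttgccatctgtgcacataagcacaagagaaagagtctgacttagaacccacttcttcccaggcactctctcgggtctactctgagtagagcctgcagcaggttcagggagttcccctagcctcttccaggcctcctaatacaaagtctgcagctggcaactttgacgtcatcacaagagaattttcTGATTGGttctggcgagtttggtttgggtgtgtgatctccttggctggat
H2-Eb1: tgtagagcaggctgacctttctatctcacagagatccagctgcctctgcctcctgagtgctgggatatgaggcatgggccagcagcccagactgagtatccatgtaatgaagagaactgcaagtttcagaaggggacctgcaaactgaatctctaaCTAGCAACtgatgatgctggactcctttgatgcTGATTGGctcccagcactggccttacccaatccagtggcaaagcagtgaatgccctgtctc
H2-Eb1 held both motifs, with 25 bases between them, and H2-Aa held the Y letters alone. The motif letters were chosen after these promoters had been seen. Both strands were searched, and the 2 motifs share no overlap in either promoter. Of the 15 class II, loading and RFX genes, 11 were in the promoter table, 7 held the Y letters, 3 the X letters and 3 both. Over all 27025 gene promoters in the table, 7.65% held the Y letters, 3.09% the X letters and 0.218% both. A match is a stretch of letters and not a shown binding site. Only exact letters were searched for, so a promoter without them can still hold a variant of the box. The stretch ctggcaac in H2-Aa is such a near match to the X letters.

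Across all genes, 5211 were measured between the class and the other Control cells; 716 of them were at least 2-fold higher in the class (13.7%) and 437 at least 2-fold lower (8.39%), with a median log2 ratio of -0.02. Below the 4 class markers, the highest genes found in at least 25% of the cells were Lgals3, Id2, Plbd1, Aif1, Lsp1, Cst3, S100a4, Ciita, Itgb7, Naaa and Ahnak, with log2 ratios of 6.24 to 4.68. Lgals3, a galectin of myeloid cells, had a median of 14 UMIs per class cell and 1147 CPM against 5.26 CPM. Cst3, the cysteine protease inhibitor cystatin C, had 4 to 412 UMIs with a median of 206, and 14601 CPM against 454 CPM. Aif1, an actin-binding protein of macrophages and dendritic cells, was at 518 against 1.60 CPM, and Lsp1, a leukocyte actin-binding protein, at 1351 against 26.5 CPM. Itgb7, the integrin beta chain of gut homing, was at 640 against 12.97 CPM. Lgals3 was found in 53 of the 56 cells, and Cst3 and Lsp1 were found in all of them.

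**Figure D2:**
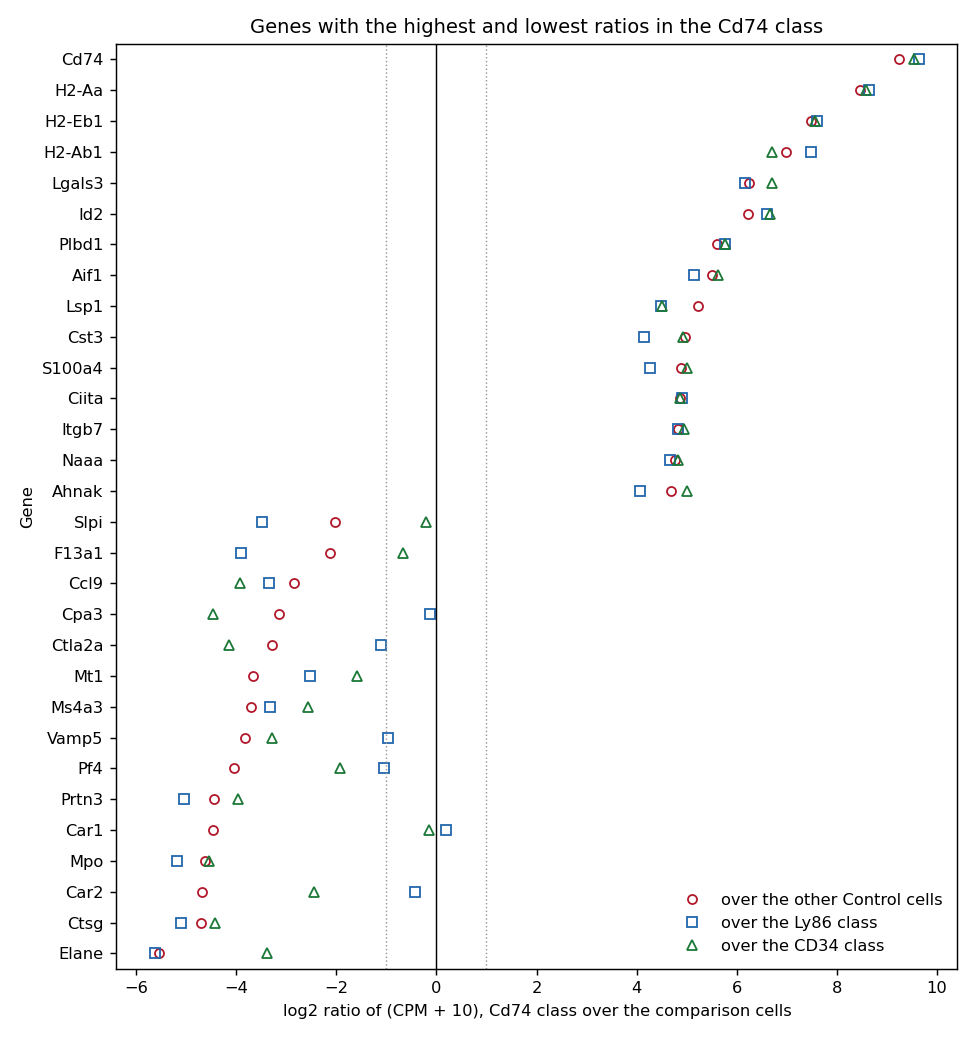
Log2 ratio of (CPM + 10) in the Cd74 class over the other Control cells (circles), over the Ly86 class (squares) and over the CD34 class (triangles), for the 15 highest genes found in at least 25% of the class cells and for the lowest genes of each comparison; dotted lines mark 2-fold. Cd74 to Ahnak lie right of 4 against all of them, while Car1 stands at -4.46 against the other Control cells but at 0.18 against the Ly86 class.

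Transcription factors of dendritic cells were among the genes that differed most. Id2, a partner that holds E proteins inactive in conventional dendritic and innate lymphoid cells, had 1 to 49 UMIs per cell with a median of 20.5 and was found in all 56 cells, at 1368 CPM against 8.47 CPM. It was nearly as high in the 9 cells of the Ccl5 class, at 1287 CPM, and stood at 139 CPM in the Ltf class. Batf3, the factor required for the cross-presenting dendritic subset, had 0 to 11 UMIs and was found in 48 cells, at 249 CPM against 0.111 CPM. Irf8, needed for the dendritic and monocyte lineages, had 0 to 84 UMIs with a median of 32.0 and was found in 53 cells, at 2305 CPM against 145 CPM, with 3660 CPM in the 5 cells of the Siglech class. Zbtb46, which marks conventional dendritic cells and their committed precursors, was found in 23 cells at 41.1 CPM against 3.47 CPM; within the library the Car1 and Hba-a2 classes held it at 6.47 and 17.7 CPM. Klf4, a factor of monocytes and of a part of the second conventional subset, was found in 40 cells at 264 CPM against 2.19 CPM. Spi1 stood at 488 against 136 CPM and Klf2 at 163 against 1.76 CPM. Irf4, which the second subset uses, had 2 UMIs in 2 cells. Of 29 dendritic and lymphoid factors in the list 18 were measured, 10 of them at least 2-fold higher, where 13.7% of all measured genes were, and 1, Zeb2, at least 2-fold lower, at 42.3 against 216 CPM, where 8.39% were.

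The 20 conventional dendritic cell markers were led by Id2, Plbd1, Cst3, Naaa, Batf3 and Ifi205. All of them were in the files and 19 had a UMI in the class. Of the 13 that were measured, each was at least 2-fold higher, where 13.7% of all measured genes were. Markers below 30 CPM in the other cells, among them Id2, Batf3 and Zbtb46, were measured only through their level in the class. For these a higher level was built into the minimum, so the count is a description and no support. The median log2 ratio over all 20, measured or not, was 2.33. At least 3 of the markers were found in 54 of the 56 cells, with a median of 10 per cell. The same was true of 17.8% of Car1 class cells, an erythroid class of similar depth (median 15393.5 UMIs). After every cell was thinned to 5000 UMIs the shares were 51 of 51 class cells and 1.34% of Car1 cells. The list was not counted in the Ly86 class. Without thinning, Ly86 cells held Cst3 in 99.1%, Flt3 in 56.7%, Id2 in 8.82% and Batf3 in 0.226%. Mgl2, a marker of one second-subset population, had no UMI in the class, and Sirpa, the signal receptor that marks the second subset, had 7 UMIs in 5 cells.

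To set shares of cells side by side, each cell was thinned to 5000 UMIs, which left out 5 shallower class cells. Batf3 was then found in 64.7% of class cells (exact binomial 95% interval 50.1 to 77.6), 0.081% of Ly86 cells and 0.0477% of Car1 cells. Klf4 was found in 56.9% (42.2 to 70.7), 2.51% and 0.525% of the same classes. Flt3, the dendritic growth factor receptor, was found in 49.0% (34.8 to 63.4) of class cells and 25.9% of Ly86 cells. Without thinning the Batf3 shares were 85.7%, 0.226% and 0.0905%, the Klf4 shares 71.4%, 11.2% and 1.22%, and the Flt3 shares 73.2% and 56.7%. Kit, the receptor that the sort selected for, was found in 29.4% of class cells (17.5 to 43.8) and 28.8% of Ly86 cells. It was found in 51.4% of CD34 class cells and 59.9% of Car1 cells. Without thinning the Kit shares were 66.1%, 71.7%, 85.9% and 89.6%. After thinning, the stem and progenitor antigen gene Cd34 was found in 7.84% (2.18 to 18.9) of class cells, 77.8% of Ly86 cells and 80.7% of CD34 class cells. Without thinning the Cd34 shares were 17.9%, 95.9% and 94.98%.

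**Figure D3:**
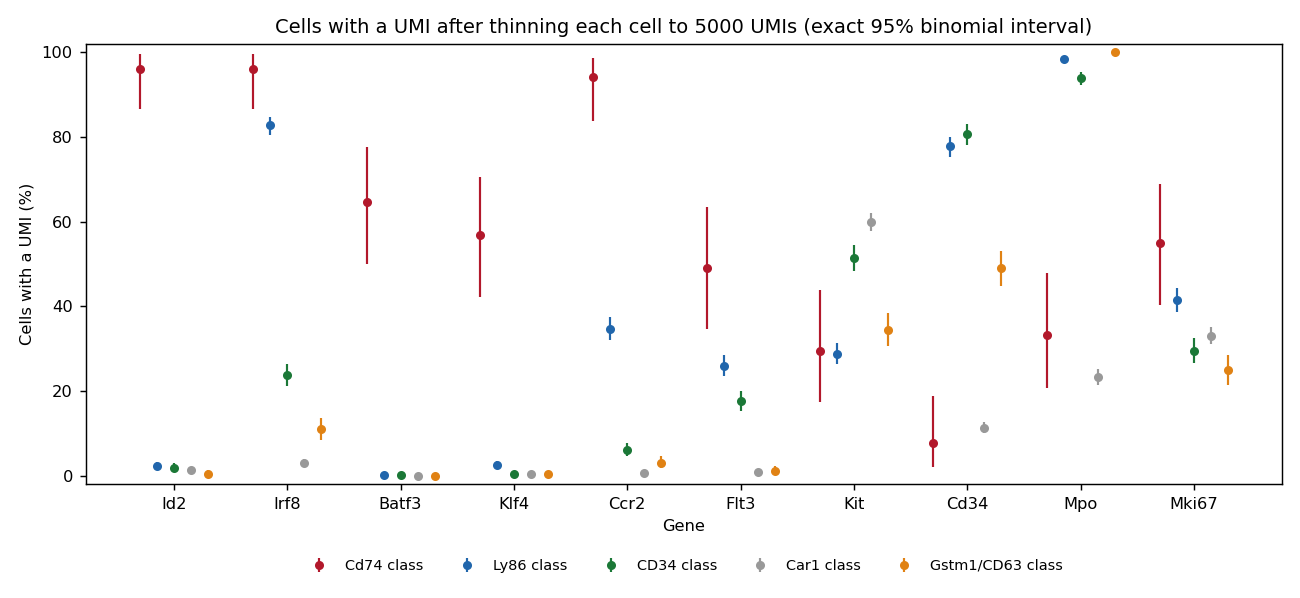
Percentage of cells with at least 1 UMI of each gene after every cell was thinned to 5000 UMIs, in the Cd74, Ly86, CD34, Car1 and Gstm1/CD63 classes of Control; bars are exact 95% binomial intervals. Id2 and Batf3 stand at 96.1% and 64.7% in the Cd74 class and near 0 in the other 4 classes plotted, Irf8 stands at 96.1% and at 82.8% in the Ly86 class, and Cd34 stands at 7.84% and at 77.8% in the Ly86 class.

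Cells of the class were not alike in their dendritic genes. Xcr1, the chemokine receptor of the cross-presenting subset, was found in 4 cells with 14, 9, 8 and 6 UMIs and in none of the other 52. Those 4 cells also held 20 to 31 UMIs of Naaa, an acid amidase of lysosomes, and 3 to 6 UMIs of Clec9a, the receptor for dying cells. Naaa came to 1452 CPM in the 4 cells and 205 CPM in the other 52, and Wdfy4, a gene of cross-presentation, to 543 and 237 CPM. Klf4 ran the other way, at 29.3 CPM in the 4 cells and 286 CPM in the other 52. Batf3, the factor required for that subset, was at 205 CPM in the 4 cells and 253 CPM in the other 52. Irf8 was at 2332 and 2302 CPM. None of the 4 cells had a UMI of the proliferation antigen Mki67, and their MHC class II share was 38284 CPM against 17217 CPM. Xcr1 and these partners were singled out after their values had been seen, and the median depth was 15340.5 UMIs in the 4 cells and 13405.5 in the rest.

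Over all 56 cells, those 4 included, genes known from different dendritic subsets could be found in the same cell. Clec9a was found in 25 cells, and 20 of them also held Klf4, as did 20 of the other 31. The 25 cells were deeper, with a median of 16635 UMIs against 10763. Cd209a, a lectin of the second subset, was found in 14 cells, of which 6 held Clec9a and none held Xcr1. Of the 42 cells without Cd209a, 19 held Clec9a. Whether these genes occur together more often than their shares over all cells would give was not tested. A UMI of Batf3 or Zbtb46 was found in 49 of the 56 cells, and Id2 with Irf8 in 53. Kit or Flt3 was found in 49 cells and both in 29. Counts of 0 to 3 UMIs per cell are near the limit of detection, so the absence of a gene from a cell is uncertain.

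**Figure D4:**
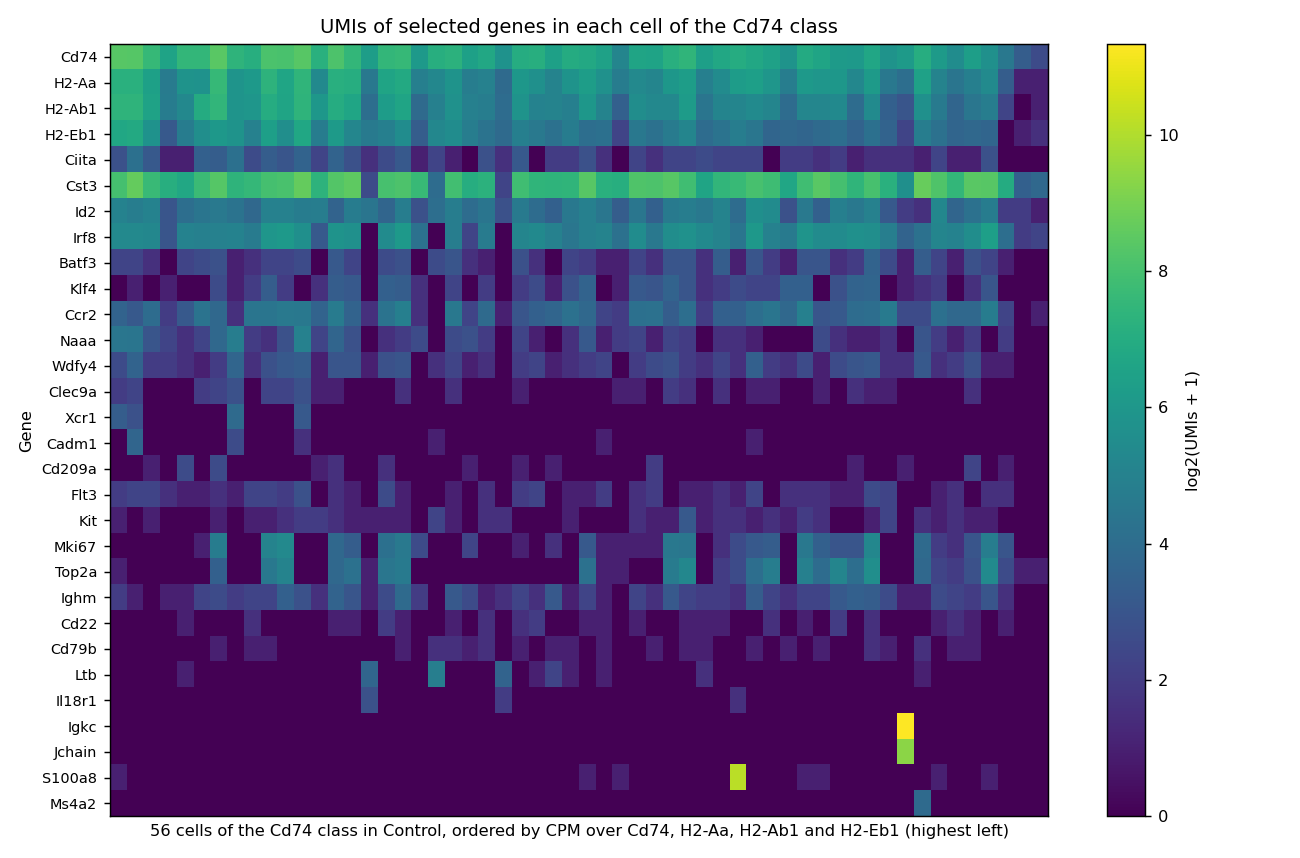
UMIs of selected genes in each of the 56 Control cells of the class, as log2(UMIs + 1), with cells ordered from the highest (left) to the lowest (right) combined level of the 4 MHC class II genes. Cst3 and Id2 run through all cells, Xcr1 appears in 4 cells, Ltb at 11 to 28 UMIs in 3 cells without Irf8, and Igkc with Jchain in 1 cell.

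Genes that mature dendritic cells turn on had few UMIs but summed to more than in the other cells. The 14 costimulation and migration genes came to 117 CPM in the class and 10.9 CPM in the other Control cells, with a median log2 ratio of 0.50, and none of them reached the minimum to be measured. Cd86 had 20 UMIs in 12 cells, at 24.9 against 0.384 CPM, Icosl was at 29.9 against 0.749 CPM and Relb, a nuclear factor of maturation, at 21.2 against 1.36 CPM. Ccr7, the receptor that takes dendritic cells to lymph nodes, had 1 UMI in the whole class, and Il12b and Ccl22 had none. A count of 0 in the class allows up to 3.74 CPM.

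Antigen handling genes beyond class II were higher in part. Of 13 lysosomal genes 11 were measured. Of these, 8 were at least 2-fold higher (13.7% of all measured genes) and 1, Ctsd, lower (8.39%), at 21.2 against 144 CPM. Psap, the precursor of the saposins, was at 1944 against 100 CPM, Ctsh, an aminopeptidase cathepsin, at 473 against 22.3 CPM, and Grn, progranulin, at 280 against 40.4 CPM. In the MHC class I list, 12 of 13 genes were measured and 5 were at least 2-fold higher, where 13.7% of all genes were: H2-T23, Tap1, Tapbp, Psmb8 and Psmb9. H2-T23 was at 1.29, and at 0.87 with the mean of per-cell CPM, inside the limit. H2-K1, B2m and H2-Q7 had log2 ratios of -0.12, -0.02 and -0.27, and reads shared among class I copies could have been split between them. Among 18 uptake and innate receptors, 17 were in the files and 5 measured. Unc93b1, the escort of endosomal Toll-like receptors, was at 330 against 57.2 CPM, Cd180 at 98.4 against 7.13 CPM, and Tlr3, the receptor for double-stranded RNA, had 40 UMIs in 22 cells against 0.0372 CPM elsewhere. The Fc receptor Fcgr3 had 3 UMIs in the class, all in 1 cell, and 53.7 CPM in the other cells.

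Receptors for migration and growth were higher in part. Of 17 homing and adhesion genes 12 were measured and 6 at least 2-fold higher, against 13.7% of all measured genes, and none lower. Ccr2, the receptor that draws cells out of the marrow, had 0 to 30 UMIs with a median of 12.5 and was found in 54 cells, at 855 against 32.4 CPM. Cd52 was at 2232 against 181 CPM, and Itgb2, the beta chain shared by leukocyte integrins, at 178 against 14.3 CPM. Of 15 cytokine receptors 9 were measured and 4 at least 2-fold higher, read against the same share. Flt3 was at 121 against 26.1 CPM, although the Unannotated cells held it at 238 CPM and the 5 cells of the Siglech class at 376 CPM. The others were Csf2ra at 115 against 32.7 CPM, Il6ra at 82.2 against 17.7 CPM and Il10ra at 33.6 against 2.70 CPM. Csf1r, the monocyte growth factor receptor, had 8 UMIs in 7 cells.

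Markers of the monocyte lineage were mixed. At least 3 of the 10 monocyte progenitor markers were found in 55 of 56 class cells and in 1.58% of cells of the erythroid Car1 class. The list was not counted in cells of the Ly86 class. Against that class 9 of the markers were measured, 3 at least 2-fold higher and 3 lower. The comparison with the other Control cells follows. Of 7 measured, 5 were at least 2-fold higher (S100a4, Klf4, Ccr2, Ms4a6c and Ly86) and 2 were lower. Of all measured genes, 13.7% were higher and 8.39% lower. Ly6c2 was at 32.4 against 170 CPM and F13a1 at 19.9 against 120 CPM. Of 10 macrophage markers none was measured, and their summed level was 13.7 CPM in the class and 28.7 CPM in the other cells.

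Markers of B cells and plasmacytoid dendritic cells were looked at because both cell types also carry MHC class II. The mature B cell list had at least 3 members in 15 of 56 class cells and in 0.0905% of Car1 cells. Neither this list nor the plasmacytoid list was counted in cells of the Ly86 class. In 11 of those 15 cells Ighm, Cd22 and Cd79b were all present. Cd22, a sialic acid receptor, had 36 UMIs in 24 cells at 44.8 against 0.0805 CPM, and Ighm, the immunoglobulin mu constant region, 280 against 72.7 CPM with 206 CPM in the Ly86 class. Ms4a1, Pax5, Fcmr, Blk and Bank1 were at 0 UMIs, and Cd79a had 3 UMIs in a single cell. After thinning, 2 of 51 cells held 3 mature B markers, and without the 15 cells the counts over all genes were 735 higher and 434 lower. At least 3 of 13 plasmacytoid markers were found in 35 cells and in 22.5% of Car1 cells, and after thinning in 17 of 51 cells and 2.43%. The counted members were mainly Bst2, Tcf4, Runx2 and Irf7. Siglech and Ly6d, which define that cell type, had no UMI. What part such cells might have in the class II level was not tested.

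A few cells carried marker lists of other lineages. In 3 cells, with 4735 to 11555 UMIs, Irf8 was absent, Cst3 was at 4 to 15 UMIs, and 4 to 6 of 12 innate lymphoid markers were present. Those cells held 28, 12 and 11 UMIs of Ltb, a lymphotoxin chain. Kit, Id2 and all 4 MHC class II genes were present in each of them, at 20275 to 25349 CPM for the 4 genes. One other cell held 2570 UMIs of Igkc, 663 of Jchain and 436 of Igha, which are immunoglobulin chains of plasma cells, and no other class cell had any. The single cell with 8 of 8 mature neutrophil markers held 1127 of the 1134 UMIs of S100a8 and 1457 of the 1463 UMIs of S100a9. The deepest cell, the called doublet, held 7 of 8 basophil and mast cell markers, among them 14 UMIs of Ms4a2. It also held 3 innate lymphoid markers.

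Those cells decide several of the genes found in fewer than 25% of the class. Without the 6 cells that carry an innate lymphoid, plasma cell, mature neutrophil or basophil list, a choice made after seeing the data, the log2 ratio of Igkc was -0.45 against 7.87 with them, that of S100a9 -5.13 against 1.51, and that of Ltb 0.81 against 2.67. That of Bcl2a1b was 0.72 against 2.65, and that of Ifitm6 0.33 against 1.79. Of 107 named genes past 2-fold, 97 stayed past it, and the counts were 757 genes higher and 466 lower. T and NK cell markers were found as at least 3 of 12 in 2 cells, and Cd3e, Cd3g, Trac, Trbc2, Gzma and Ncr1 were at 0, although Klrd1 was at 44.8 against 0.991 CPM and Ms4a4b at 44.8 against 5.24 CPM.

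Against the other Control cells, the lowest genes of the class were those of granule-forming and erythroid progenitors. Elane, the neutrophil elastase, was the lowest of the ranked genes, at 29.9 CPM in the class and 1843 CPM in the other cells, with 0 to 2 UMIs per class cell. Mpo, the myeloperoxidase, was at 94.6 against 2548 CPM, Prtn3, proteinase 3, at 94.6 against 2259 CPM, and Ctsg, cathepsin G, at 54.8 against 1668 CPM. Of 8 neutrophil progenitor markers, 7 were measured and all 7 were at least 2-fold lower, where 8.39% of measured genes were. At least 3 of them were found in 18 class cells and in 43.2% of Car1 cells. The carbonic anhydrase genes Car1 and Car2 were at 29.9 against 869 CPM and 14.9 against 631 CPM. The platelet chemokine gene Pf4 had 2 UMIs in the class and 196 CPM elsewhere. Against the Ly86 class the log2 ratios of Car1, Car2 and Pf4 were 0.18, -0.43 and -1.05. None of the listed erythroid or megakaryocyte markers was measured in that comparison, so their low level is not particular to the Cd74 class. At least 3 erythroid markers were found in 3 of 56 class cells and 86.9% of Car1 cells. Eosinophil and megakaryocyte lists reached 3 members in no class cell, stromal and endothelial markers in none, and early B cell markers in 1.

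Regulators of those lineages were lower in part. Of 16 myeloid, erythroid and megakaryocyte factors 15 were measured, 10 at least 2-fold lower (8.39% of all measured genes) and 2, Klf4 and Cbfb, higher (13.7%). Against the Ly86 class 9 were measured, 4 at least 2-fold lower (5.94% of all measured genes) and 1 higher (12.9%). The values that follow are against the other Control cells. Myb, a factor of proliferating progenitors, was at 67.2 against 494 CPM, Cebpe, of late granulocyte development, at 3.74 against 73.2 CPM, and Gata2 at 16.2 against 129 CPM. Gata1, the erythroid master factor, had no UMI against 50.4 CPM. Runx1 itself was at 80.9 CPM in the class against 143 CPM, a log2 ratio of -0.75 that lies inside the 2-fold limit, and Cbfb, its binding partner, was at 153 against 64.0 CPM. Multipotent progenitor markers were low too, with 5 of 10 measured and 4 of these 2-fold lower. At least 3 of them were found in 2 cells and in 79.1% of Car1 cells.

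**Figure D5:**
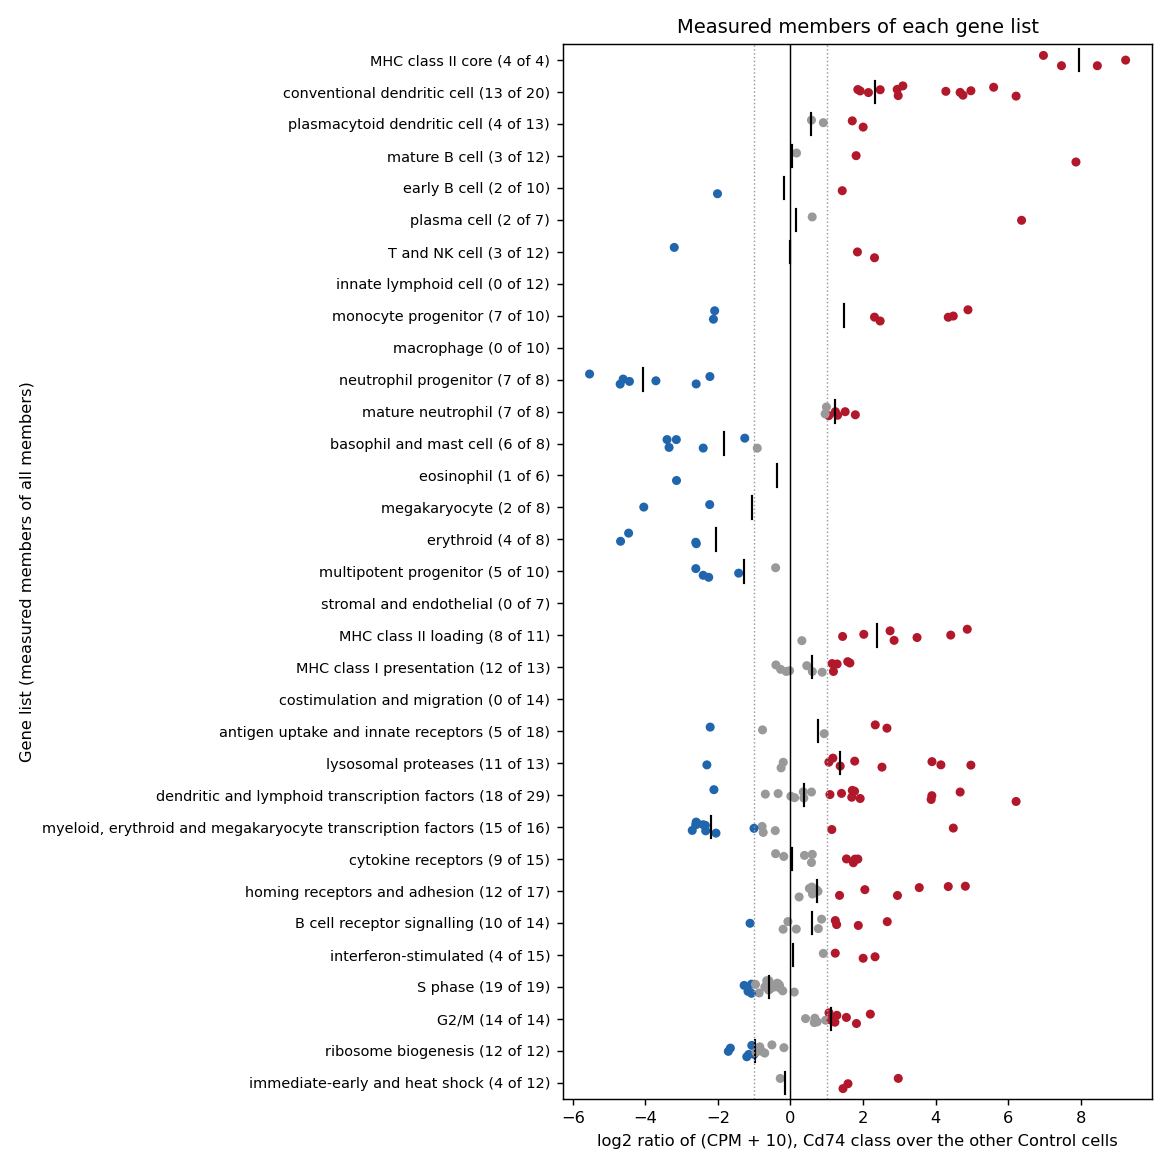
Log2 ratio of (CPM + 10) in the Cd74 class over the other Control cells for the measured members of each gene list (points; red at least 2-fold higher, blue at least 2-fold lower, grey between), with a black bar at the median over all listed members in the files; labels give measured members of all members. The 13 measured conventional dendritic cell markers all lie right of the 2-fold line, and the 7 measured neutrophil progenitor markers all lie left of it.

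Cell cycle genes, ribosome biogenesis genes and the smaller lists were read against the shares of all measured genes past 2-fold, 13.7% higher and 8.39% lower. Of 14 G2/M genes 9 were at least 2-fold higher and none lower, with a list median of 1.11. Ube2c, a ubiquitin enzyme of mitotic exit, was at 676 against 139 CPM, Nusap1, a spindle protein, at 207 against 51.4 CPM, and Mki67 at 492 against 204 CPM. Of 19 S phase genes none was 2-fold higher, 15 were inside the limit and 4 were lower: Mcm2, Mcm7, Ung and Dut. Mcm7 was at -1.07, and at -0.92 with the mean of per-cell CPM. Mki67 was found in 34 of the 56 cells, with 23 cells at 5 or more UMIs and 22 cells at none. After thinning it was found in 54.9% of class cells (40.3 to 68.9), 41.5% of Ly86 cells and 33.1% of Car1 cells, and without thinning in 60.7%, 69.3% and 46.1%, at median depths of 13502.5, 28550.5 and 15393.5 UMIs. Top2a, a mitotic topoisomerase, was found after thinning in 52.9% and 55.7% of class and Ly86 cells. Of 12 ribosome biogenesis genes 6 were at least 2-fold lower and none higher, with Ncl at 412 against 1320 CPM. Npm1, at 1141 against 2541 CPM, had a log2 ratio of -1.15, which was -0.98 with the mean of per-cell CPM and so inside the limit. Smaller groups had few measured members. Interferon-stimulated genes had 3 of 4 measured at least 2-fold higher, led by Ifi27l2a and Irf7, and immediate-early genes had 3 of 4, led by Btg2 at 173 against 13.3 CPM. In the B cell receptor signalling list 4 of 10 measured genes were 2-fold higher, with Lyn at 162 against 37.0 CPM and Plcg2 at 85.9 against 29.7 CPM, and 1 was lower.

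By summed profile the monocyte progenitor class Ly86 had the highest correlation with the Cd74 class, by a small margin. Pearson's r of log2(CPM + 10) across the 5211 genes was 0.770 for the Ly86 class, 0.762 for the Unannotated cells and 0.759 for the Siglech class. It was lowest for the Hba-a2 class, at 0.573. These values are across genes of 1 library and share its processing, and the class sizes run from 5 to 2210 cells. The profiles differ in depth, at 36967710 UMIs for Ly86, 1866576 for Unannotated and 61198 for Siglech. Whether their order would hold at equal depth was not tested. Against the Ly86 class, 654 of 5051 genes were at least 2-fold higher (12.9%) and 300 at least 2-fold lower (5.94%). With TMM scaling, which shifted the median by -0.13, the counts were 537 and 416. The class II genes and Id2 led again. Irf8 was closer, at 2305 CPM in the class and 493 CPM in Ly86 cells, and Ms4a6c was at 824 against 436 CPM, inside the 2-fold limit. Among the lowest named genes, Elane had a log2 ratio of -5.63, Mpo -5.19, F13a1 -3.91 and Slpi, a protease inhibitor, -3.48. Of the 10 monocyte progenitor markers 9 were measured against this class, 3 at least 2-fold higher and 3 lower, with a median log2 ratio of 0.28 over the list. Ly6c2, one of the lower ones, was at 32.4 against 415 CPM.

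Against the early progenitor class CD34, 662 of 5251 genes were at least 2-fold higher (12.6%) and 414 at least 2-fold lower (7.88%). The lowest named genes included Mpo at a log2 ratio of -4.55, Cpa3, a mast cell carboxypeptidase, at -4.45, Ctla2a at -4.14 and Ccl9 at -3.93. Cd34 was at 19.9 CPM in the class and 376 CPM in the CD34 class. Ctsh, at 473 against 4.31 CPM, and Ccr2, at 855 against 18.6 CPM, differed more from this class than from the Ly86 class, where they were at 65.4 and 108 CPM.

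In the library labelled Runx1 KO, the class held 7 of 7889 cells, 0.0887% (0.0357 to 0.183), and in Control 56 of 6906 cells, 0.811% (0.613 to 1.05). These intervals are exact binomial, for counting error alone. With 1 library each, genotype and mouse cannot be told apart. The 7 cells held 4435 to 23377 UMIs. Their Cd74 UMIs were 253, 192, 173, 148, 125, 85 and 14, and H2-Aa and H2-Eb1 were found in all 7, Ciita in 5. Id2 and Batf3 were each found in 4 of the 7 cells, with 11 to 25 and 1 to 7 UMIs, and Irf8 in 6. Csf1r was found in 3 cells with 11, 9 and 5 UMIs, none of which held Id2 or Batf3. One further cell held 6 innate lymphoid markers with 23 UMIs of Ltb and 9 of Il18r1. Runx1 UMIs were found in 4 cells, 14 in all; since 3′ counts may lie outside the deleted part, they do not check the genotype. No Runx1 KO cell held a UMI of Igkc or Jchain, and 1 held a UMI of Xcr1.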

How the data were processed

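The authors deposited counts: a matrix of UMIs with 31053 genes and 14795 cells, with a cell annotation that gives the library, the class, the UMIs and the mitochondrial fraction of each cell. The submitters' processing notes name Cell Ranger and mm10. No source used here gives versions, cell filters or the way classes were assigned. UMIs were summed over cells and set to CPM, and log2 ratios used a pseudocount of 10 CPM. Genes were measured at 30 CPM in the higher side and 50 UMIs over both, and called at 2-fold. A gene below 30 CPM on 1 side was measured only through the other side. Counts of measured list members past 2-fold are therefore descriptions. No test was run, since there is 1 library per genotype. Ratios carry exact Poisson and shares exact Clopper-Pearson 95% intervals, both for counting error only. A list counts as carried by a cell at 3 members. Outside the Cd74 class, cells carrying a list were counted in the Car1 class alone. The ratio step was tested on simulated Poisson counts of summed profiles, which hold no differences among cells. Thinning, list counts and the motif search were not tested in this way. Named genes were the class markers, the 15 highest genes found in at least 25% of class cells, the 8 highest in fewer, the 10 lowest, the 6 highest and lowest against the Ly86 and CD34 classes, and up to 4 members of each list, leaving out predicted, mitochondrial, sex-linked and ribosomal protein genes; other listed genes that are named were chosen after their values were seen. The members and lists were chosen with earlier results of these data known. Doublets were called with Scrublet in scanpy 1.11.5 and kept; TMM factors came from the edgeR method. Genes were located in GENCODE M21. Some listed genes are not reported here. Clec7a and Ifi30 were not matched to a gene of the files.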

Additional observations from a re-analysis of the deposited data

How the results depend on the processing

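All 6 counts of genes past 2-fold stayed within 1.5 times under each alternative tried: a pseudocount of 1, lower or no minimums, the mean of per-cell CPM, TMM scaling, thinning to 5000 UMIs, the mean of the large classes where it applies, and leaving out mitochondrial-rich cells, called doublets, the deepest cell, cells with 3 mature B cell markers or, chosen after seeing the data, the 6 cells with another lineage's list. Over 113 genes and 1356 values, 12 changed sign, all in genes that rest on 1 cell. Without the cells with 3 mature B cell markers the log2 ratios were -0.45 for Igkc, -0.0142 for Igha and -0.0116 for Jchain, and they were the same without the 6 cells. Those 6 cells also moved Ltf to -2.05, Retnlg to -1.78, S100a8 to -4.93 and S100a9 to -5.13. With the mean of per-cell CPM, Retnlg was at -0.74 and S100a8 at -0.0842, and 99 of the 107 named genes past 2-fold stayed past it; among the 8 that did not, H2-T23, Mcm7, Npm1 and Slpi do not rest on 1 cell. Against the mean of the large classes 105 stayed, and Dntt (-0.81) and Prg2 (-0.95) did not. Cells with 3 plasmacytoid markers fell to 17 and those with 3 neutrophil progenitor markers to 1 of 51 after thinning, against 35 and 18 of 56 before. Depth limits statements on genes with few UMIs per cell. No paired analysis was possible because there is 1 library per genotype and no result comes from a test.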
